A study of Homo sapiens with 6 samples.

Results

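The genes described here build, anchor or remodel the pericellular matrix, the coat of proteoglycans and glycoproteins that surrounds a cell. There were 10 of 58302 genes in the count tables, taken by name: the proteoglycan genes VCAN and SRGN, the hyaluronan receptor gene CD44, the matricellular protein genes THBS1 and SPP1, the protease genes MMP9 and PLAU, the protease receptor gene PLAUR and the protease inhibitor genes TIMP1 and TIMP2. RNA was sequenced from HL-60, an established human line of acute myeloid leukaemia cells kept in suspension with 20% serum. The 2 groups were cells with a short hairpin RNA (shRNA) against OSGEP, labelled as a knockdown of that gene (3 libraries), and cells with a control shRNA, labelled WT (3 libraries). OSGEP is the catalytic subunit of the KEOPS complex, which makes the t6A modification of tRNAs, and the study asked what it does in acute myeloid leukaemia. All 6 libraries came from this 1 line with a hairpin in it, and no label says whether libraries were separate cultures or how many OSGEP hairpins were used.

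The pericellular matrix of blood cells holds proteoglycans, proteins that carry long sulfated sugar chains. Versican and serglycin carry chondroitin sulfate. Versican is secreted and binds hyaluronan, while serglycin is packed into granules with the proteases and cytokines it binds. CD44 holds hyaluronan at the cell surface and also binds osteopontin, the product of SPP1, and serglycin. Matrix metalloproteinases such as MMP9 cut matrix proteins and are held in check by the TIMP proteins, and urokinase, from PLAU, bound to its receptor, from PLAUR, turns plasminogen into plasmin at the cell surface.

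Total counts ran from 8326982 to 10157091 per library. OSGEP itself (ENSG00000092094) stood at 21.2, 23.1 and 20.9 CPM (counts scaled to a common library size, by TMM) in OSGEP shRNA libraries 1, 2 and 3, against 49.1, 54.4 and 76.9 CPM in control shRNA libraries 1, 2 and 3, so that the groups did not overlap. Of 14018 genes tested, 1507 (10.8%) were called at an adjusted p under 0.05 in edgeR's quasi-likelihood test, 727 (5.19%) higher and 780 (5.56%) lower in OSGEP shRNA cells, a split that was 859 and 612 with library size alone. The count of called genes was 941 without OSGEP shRNA 3, 890 without control shRNA 2 and 870 without control shRNA 3. The myeloid markers MPO, ELANE, AZU1, PRTN3, CTSG, CD33, SPI1, CEBPA, PTPRC and LYZ were all detected in both groups. Their summed level was 1458 to 1550 CPM in OSGEP shRNA libraries and 3112 to 3271 CPM in control shRNA libraries, with 4 of the 10 called lower (MPO, ELANE, AZU1 and PRTN3) and 0 higher. Summed markers of other cell types ran from 19.2 to 23.4 CPM in OSGEP shRNA and 7.73 to 11.6 CPM in control shRNA libraries for the 10 fibroblast and stromal genes, where FAP and THY1 had no count, and from 27.8 to 57.7 CPM in OSGEP shRNA and 20.5 to 25.4 CPM in control shRNA libraries for the 5 epithelial genes. They ran from 38.5 to 62.03 CPM in OSGEP shRNA and 61.4 to 76.1 CPM in control shRNA libraries for the 5 endothelial genes, where CDH5 and TEK had no count, and from 24.8 to 28.8 CPM in OSGEP shRNA and 84.1 to 98.5 CPM in control shRNA libraries for the 6 lymphoid genes, where most of the level was NKG7. The 6 erythroid and megakaryocytic genes summed to 0.209 to 1.19 CPM in OSGEP shRNA and 1.02 to 1.75 CPM in control shRNA libraries. The part of these differences in the results that follow was not tested.

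All 10 genes of the set passed the filter on low counts, and 5 of them were called, 3 higher (TIMP2, SPP1 and CD44) and 2 lower (VCAN and SRGN) in OSGEP shRNA cells, beside 10.8% of all genes tested. The 5 not called were THBS1, MMP9, PLAU, PLAUR and TIMP1. Only MMP9 passed the filter through its OSGEP shRNA libraries alone. In 7 of the 10 the values of the groups did not overlap, MMP9 among them, beside 28.9% of all genes tested. The set was chosen with earlier results of these data known, so both comparisons with all genes are descriptions. The median log2 fold change of the 10 was 0.32, against 0.01 over all genes tested, and the 10 ran from -3.16 to 2.80. In bulk RNA, fewer cells that express a gene and less RNA of it per cell cannot be told apart.

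**Figure D1:**
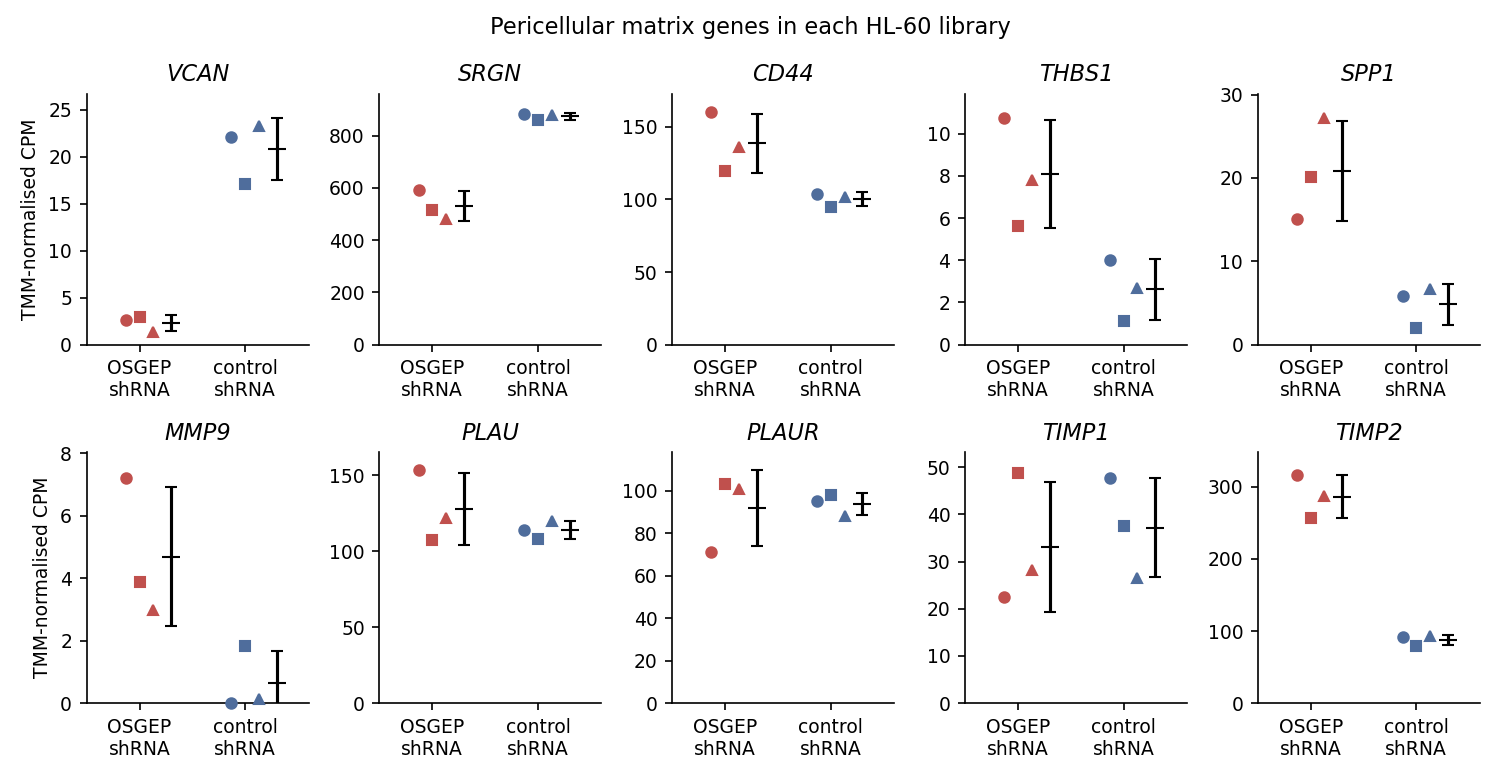
TMM-normalised CPM (vertical axes, each from 0) of the 10 genes in each library, with OSGEP shRNA on the left and control shRNA on the right of every panel; circle, square and triangle are libraries 1, 2 and 3, and black marks give the mean and SD of the 3, cut at 0 for MMP9. The groups are apart for VCAN, SRGN, CD44, THBS1, SPP1, MMP9 and TIMP2 and overlap for PLAU, PLAUR and TIMP1.

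**Figure D2:**
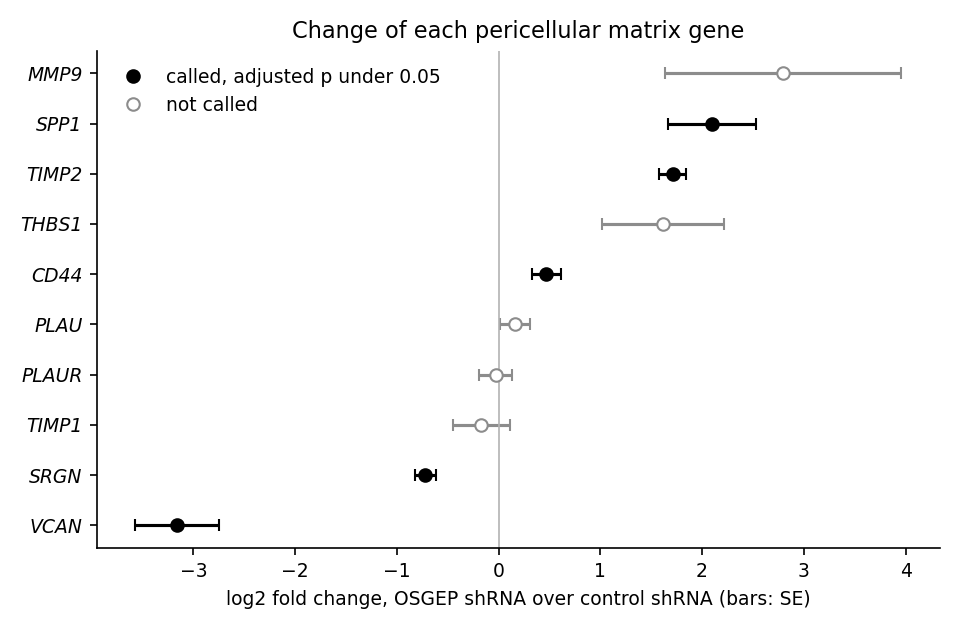
Log2 fold change of each gene, OSGEP shRNA over control shRNA, with its standard error; filled points were called at an adjusted p under 0.05. VCAN lies farthest to the left, at -3.16, and MMP9 farthest to the right, at 2.80, with a standard error of 1.16.

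The RefSeq promoter windows of the called genes that have one, from 250 bases before to 50 bases after the start (GRCh38.p14, plus strand in each case), are shown because these genes moved in opposite directions, VCAN downward and SPP1 and CD44 upward. RefSeq windows were matched for 7 of the 10 genes, 8 windows in all, since PLAU has 2. Capitals mark matches on either strand to 5 short motifs: the AP-1 element (TGANTCA), the GC box (GGGCGG), the RUNX element (TGTGGTT), the TATA box (TATAAA) and the C/EBP-ATF element (TGATGNAA). The VCAN window lies at chr5:83471494-83471793, the SPP1 window at chr4:87975464-87975763 and the CD44 window at chr11:35138921-35139220.
VCAN: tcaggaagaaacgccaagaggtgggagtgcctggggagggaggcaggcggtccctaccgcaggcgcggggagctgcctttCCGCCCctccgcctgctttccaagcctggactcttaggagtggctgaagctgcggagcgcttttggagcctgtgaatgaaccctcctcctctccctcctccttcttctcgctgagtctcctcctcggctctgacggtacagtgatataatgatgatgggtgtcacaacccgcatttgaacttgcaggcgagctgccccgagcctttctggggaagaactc
SPP1: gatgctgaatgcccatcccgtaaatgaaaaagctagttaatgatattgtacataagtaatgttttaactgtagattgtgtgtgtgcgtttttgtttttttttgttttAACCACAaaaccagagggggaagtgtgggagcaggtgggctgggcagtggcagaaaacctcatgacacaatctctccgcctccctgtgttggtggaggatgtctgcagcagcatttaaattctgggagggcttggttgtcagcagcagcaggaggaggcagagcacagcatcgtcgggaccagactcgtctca
CD44: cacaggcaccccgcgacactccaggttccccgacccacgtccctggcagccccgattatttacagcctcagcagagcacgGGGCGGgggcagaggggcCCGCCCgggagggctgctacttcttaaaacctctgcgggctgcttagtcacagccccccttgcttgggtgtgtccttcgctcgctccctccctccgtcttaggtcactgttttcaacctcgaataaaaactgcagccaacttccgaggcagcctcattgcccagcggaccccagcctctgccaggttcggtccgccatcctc
The VCAN window held 1 GC box and the CD44 window 2, a motif found in 45% of the 35116 windows of that length in the table. The SPP1 window held 1 RUNX element, with its first base at -143 from the start, and the motif was found in 4.27% of windows. Of the 8 windows of the set, 2 held a RUNX element, the other being that of TIMP1 (at -71), which was not called. A GC box was in 5 of the 8, among them windows of THBS1, PLAU and TIMP1, which were not called. Whether any motif had a part in the changes was not tested. AP-1, TATA and C/EBP-ATF letters, which 7.71%, 11.5% and 3.62% of windows held, had no match in these 3 windows.

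VCAN (ENSG00000038427, chromosome 5, 83471465 to 83582303, plus strand, GRCh38), the gene of the large secreted proteoglycan versican, had the steepest fall of the set. Its level was 2.61, 2.96 and 1.31 CPM in OSGEP shRNA libraries 1, 2 and 3, against 22.05, 17.1 and 23.3 CPM in control shRNA libraries 1, 2 and 3. The highest OSGEP shRNA library was far below the lowest control shRNA library. These levels rest on 68 reads in the OSGEP shRNA and 570 reads in the control shRNA libraries. This was a fall of 8.95-fold (log2 fold change -3.16 with SE 0.41; adjusted p of 6.55e-05 in edgeR), and 49 of the 14018 genes tested, VCAN included, had one as low or lower. The antisense gene VCAN-AS1 had no count in any library.

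SRGN (ENSG00000122862, chromosome 10, 69088106 to 69104811), which encodes the granule proteoglycan serglycin, was the most abundant of the set and fell by less. It stood at 593, 517 and 482 CPM in OSGEP shRNA libraries 1, 2 and 3 and at 882, 859 and 880.0 CPM in control shRNA libraries 1, 2 and 3, with no overlap. The control shRNA libraries lay close together, and the OSGEP shRNA libraries were more spread. The log2 fold change was -0.72 (SE 0.10; edgeR adjusted p = 0.000121). In the same libraries, the granule protease genes ELANE and PRTN3, chosen after their values were seen, fell by 1.36 (SE 0.13) and 1.47 (SE 0.11) on the log2 scale. CTSG, the gene of the granule protease cathepsin G, had -0.72 (SE 0.25) and was not called, at an edgeR adjusted p of 0.0848. The log2 ratio of SRGN to VCAN reads within a library was 7.90 ± 0.53 in OSGEP shRNA cells and 5.40 ± 0.22 in control shRNA cells (SD, n = 3 each; exact two-sided permutation p = 0.1, the smallest that 3 against 3 can give).

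CD44 (ENSG00000026508, chromosome 11, 35138870 to 35232402), the hyaluronan receptor gene, had a small rise. It stood at 160, 120 and 136 CPM in OSGEP shRNA libraries 1, 2 and 3 and at 104, 94.7 and 102 CPM in control shRNA libraries 1, 2 and 3. The lowest OSGEP shRNA library, library 2, was still above the highest control shRNA library. Its rise was 1.38-fold (log2 fold change 0.47 with SE 0.14; adjusted p of 0.0427 in edgeR). The call ended without OSGEP shRNA 1 (0.35) or 3 (0.50) and without control shRNA 1 (0.49), 2 (0.43) or 3 (0.48). Gene-level counts do not separate the CD44 splice forms.

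SPP1 (ENSG00000118785, chromosome 4, 87975650 to 87983426), which encodes the secreted phosphoprotein osteopontin, was low in control shRNA cells and rose in OSGEP shRNA cells. Its level was 15.1, 20.2 and 27.2 CPM in OSGEP shRNA libraries 1, 2 and 3, against 5.87, 2.05 and 6.65 CPM in control shRNA libraries 1, 2 and 3. Control shRNA 2 was the lowest of the 6, and the groups did not overlap. The rise was 4.29-fold (log2 fold change 2.10 with SE 0.43; adjusted p of 0.00376 in edgeR), and it was called without each library in turn.

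THBS1 (ENSG00000137801, chromosome 15, 39581079 to 39599466), which encodes thrombospondin-1, a glycoprotein that binds CD36 and CD47, was not called. It had 10.7, 5.64 and 7.83 CPM in OSGEP shRNA libraries 1, 2 and 3 and 4.02, 1.13 and 2.71 CPM in control shRNA libraries 1, 2 and 3. Every OSGEP shRNA library was above every control shRNA library, on 230 reads in the OSGEP shRNA and 72 in the control shRNA libraries. The log2 fold change was 1.62 (SE 0.60; edgeR adjusted p = 0.104). With DESeq2, too, the adjusted p missed the threshold, at 0.0721.

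Read against CD44 in the same library, both matricellular genes had higher values in all 3 OSGEP shRNA libraries. The log2 ratio of SPP1 to CD44 reads was -2.76 ± 0.56 in OSGEP shRNA cells and -4.52 ± 0.86 in control shRNA cells, and that of THBS1 to CD44 was -4.13 ± 0.26 in OSGEP shRNA cells and -5.40 ± 0.85 in control shRNA cells (SD, n = 3 each; exact permutation p = 0.1 for each). The groups did not overlap in either ratio, and both ratios had their lowest value in control shRNA 2. Without that library the difference between means was 1.26 for SPP1 over CD44, against 1.75 with it, and 0.80 for THBS1 over CD44, against 1.27 with it.

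MMP9 (ENSG00000100985, chromosome 20, 46008908 to 46016561), the gene of the gelatinase that neutrophils store in granules, had few reads. It had 69, 42 and 25 reads in OSGEP shRNA libraries 1, 2 and 3 (7.20, 3.88 and 2.97 CPM), against 0, 18 and 1 in control shRNA libraries 1, 2 and 3 (0, 1.84 and 0.123 CPM). Nearly all control shRNA reads came from library 2, which was still below every OSGEP shRNA library. The log2 fold change was 2.80 (SE 1.16), not called at an edgeR adjusted p of 0.153. Without control shRNA 2 it was 6.05 and called (edgeR adjusted p = 0.0234), and without control shRNA 1 it was 2.21 and not called. In the fit without control shRNA 2 the control libraries held 0 and 1 reads. MMP9 was thus in that fit through OSGEP shRNA libraries alone, and the call is no support for a rise. Over the 12 alternative fits, edgeR, DESeq2 and limma-voom together, its adjusted p ran from 0.0234 to 0.362, and the log2 fold change with limma-voom was 4.08.

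The urokinase genes were not called. PLAU (ENSG00000122861, chromosome 10, 73909177 to 73917497) stood at 154, 107 and 122 CPM in OSGEP shRNA libraries 1, 2 and 3 and at 114, 108 and 120 CPM in control shRNA libraries 1, 2 and 3, with a log2 fold change of 0.16 (SE 0.15; edgeR adjusted p = 0.595). The groups overlapped, with OSGEP shRNA 1 the highest of the 6. PLAUR (ENSG00000011422, chromosome 19, 43646095 to 43670547, minus strand) stood at 71.2, 103 and 101 CPM in OSGEP shRNA libraries 1, 2 and 3 and at 95.1, 97.9 and 88.1 CPM in control shRNA libraries 1, 2 and 3, with a log2 fold change of -0.03 (SE 0.16; edgeR adjusted p = 0.944). Here OSGEP shRNA 1 was the lowest of the 6. The log2 ratio of PLAU to PLAUR was 1.11, 0.05 and 0.28 in OSGEP shRNA libraries 1, 2 and 3 and 0.26, 0.14 and 0.44 in control shRNA libraries 1, 2 and 3, a difference of 0.20 between means (exact permutation p = 0.8) that was -0.12 without OSGEP shRNA 1.

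TIMP2 (ENSG00000035862, chromosome 17, 78852977 to 78925387, minus strand), an inhibitor of metalloproteinases, had the smallest p of the set. It stood at 317, 256 and 287 CPM in OSGEP shRNA libraries 1, 2 and 3, against 91.1, 79.5 and 92.8 CPM in control shRNA libraries 1, 2 and 3. Each group was tight and they lay far apart. It rose 3.27-fold (log2 fold change 1.71 with SE 0.13; adjusted p of 2.23e-07 in edgeR). With each library left out in turn it stayed between 1.63 and 1.79 and called.

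TIMP1 (ENSG00000102265, chromosome X, 47582313 to 47586789), a relative of TIMP2, varied more within groups than between them. It stood at 22.5, 48.7 and 28.1 CPM in OSGEP shRNA libraries 1, 2 and 3 and at 47.6, 37.4 and 26.6 CPM in control shRNA libraries 1, 2 and 3. The highest and the lowest library of the 6 were both OSGEP shRNA. Its log2 fold change was -0.17 (SE 0.28; edgeR adjusted p = 0.809). TIMP1 lies inside SYN1 on the opposite strand, which had 49 reads in the OSGEP shRNA and 4 in the control shRNA libraries, against 980 for TIMP1 in the OSGEP shRNA and 1044 in the control shRNA libraries.

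The inhibitors and MMP9 were also set against each other within each library. The log2 ratio of TIMP2 to TIMP1 reads was 3.81, 2.39 and 3.35 in OSGEP shRNA libraries 1, 2 and 3 and 0.94, 1.09 and 1.80 in control shRNA libraries 1, 2 and 3, a difference of 1.91 between means. The log2 ratio of MMP9 to TIMP1 reads, with 0.5 added to each count, was -2.83 ± 1.05 in OSGEP shRNA cells and -7.11 ± 2.77 in control shRNA cells (SD, n = 3 each). In control shRNA 1, where MMP9 had no read, the value of -9.85 is set by the 0.5 added, and MMP9 passed the filter through OSGEP shRNA libraries alone, so the gap in this ratio is a description and not support for a difference. The difference between means was 4.28, or 2.91 without control shRNA 1, 5.68 without control shRNA 2 and 3.81 with 1 added to each count. The exact permutation p was 0.1 for each of these ratios with all 6 libraries. Over the 6 ratios compared, the Benjamini-Hochberg adjusted p was 0.12 for 5 of them and 0.8 for PLAU over PLAUR.

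**Figure D3:**
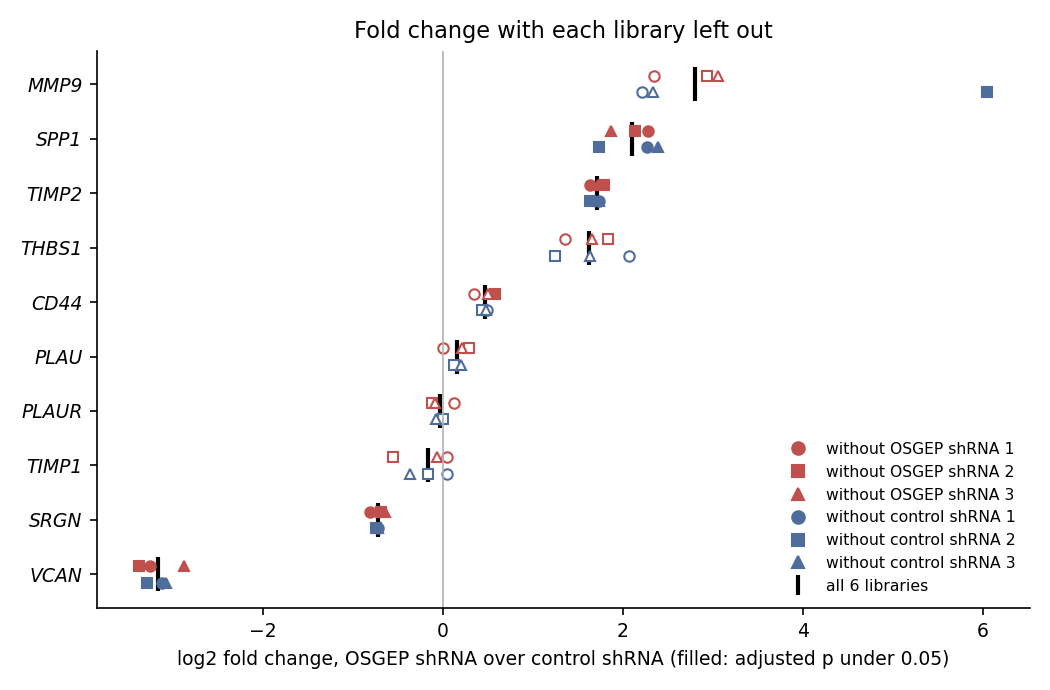
Log2 fold change of each gene, OSGEP shRNA over control shRNA, with all 6 libraries (black bars) and with each library left out in turn (red, OSGEP shRNA; blue, control shRNA; circle, square and triangle for libraries 1, 2 and 3; filled where the adjusted p was under 0.05). VCAN, SRGN, SPP1 and TIMP2 are filled throughout, CD44 only without OSGEP shRNA 2, and MMP9 only without control shRNA 2, at 6.05.

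Per kilobase of exon (RPKM, the CPM divided by the exonic length), SRGN led in both groups, at 435 in OSGEP shRNA and 716 in control shRNA cells. In OSGEP shRNA cells TIMP2 came next, at 50.9 RPKM, with a range that overlapped that of PLAU at 43.3 RPKM. TIMP1 (21.5), PLAUR (20.6) and CD44 (13.9) followed. TIMP1 overlapped PLAUR in range and PLAUR overlapped CD44, while CD44 lay above SPP1 without overlap. Below them were SPP1 at 8.97, MMP9 at 2.00, THBS1 at 0.881 and VCAN at 0.154 RPKM, whose ranges did not overlap. In control shRNA cells TIMP2, at 15.6 RPKM, came after PLAU (38.7), TIMP1 (24.2) and PLAUR (21.02), of which TIMP1 and PLAUR overlapped. CD44 ran from 9.47 to 10.3 RPKM there, SPP1 (2.09) overlapped VCAN (1.40), and THBS1 (0.286) overlapped MMP9 (0.280).

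**Figure D4:**
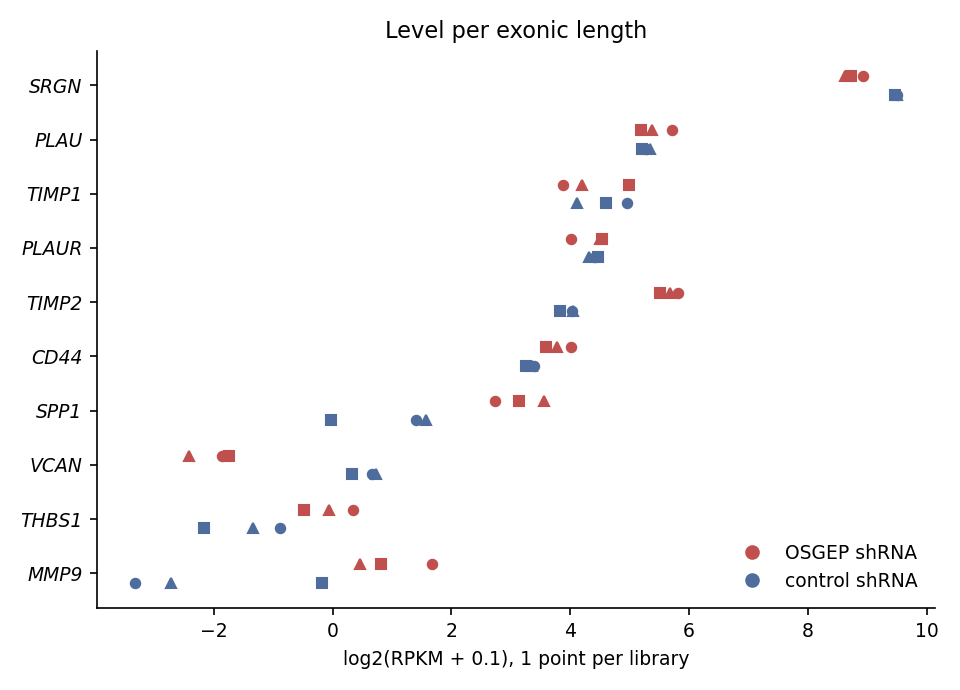
Level per exonic length of each gene, as log2(RPKM + 0.1), with 1 point per library (red, OSGEP shRNA, drawn above; blue, control shRNA; circle, square and triangle for libraries 1, 2 and 3). SRGN stands at the top in every library, and TIMP2, VCAN and MMP9 change places in the order of mean levels between the groups. In control shRNA cells the ranges of MMP9 and THBS1 overlap.

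Beyond the set, 6 lists of other matrix genes held 264 genes, of which 144 were tested. Of these, 37 were called (25.7%, beside 10.8% of all genes tested), 26 higher and 11 lower in OSGEP shRNA cells. The lists, too, were chosen with earlier results of these data known. Of the 144, 25 had passed the filter on low counts through the OSGEP shRNA libraries alone, as 808 of all genes had, and 6 through the control shRNA libraries alone, as 766 of all genes had. Of the 26 rises, 6 were among those 25 (CD36, CEMIP2, CTSK, DSE, MMP1 and PAPSS2), which only their higher level in OSGEP shRNA cells brought into the test, so these counts and medians are descriptions. Kept to genes with a mean of at least 5 CPM over all 6 libraries, a choice made after seeing the data, 93 genes of the lists remained, with 23 higher and 11 lower (36.6%, beside 13.5% of all genes so kept). That mean takes in both groups. Thus CD36, MMP1 and PAPSS2, which passed the filter through the OSGEP shRNA libraries alone, were still among these genes. The medians over the genes so kept, which differ in sign from those over all tested for the first 2 lists, were -0.18 for proteoglycan and hyaluronan genes, 0.02 for chain synthesis, 0.51 for matricellular genes and glycoproteins, 0.09 for receptors and partners, 0.98 for proteases and 0.48 for inhibitors. The largest count was among other matrix proteases, where 10 rose and 2 fell of 25 tested (48%), with a median log2 fold change of 0.99 against 0.01 over all genes. MMP2, the gelatinase whose pro-form TIMP2 binds, stood at 284 ± 23.6 CPM in OSGEP shRNA cells and 52.1 ± 10.1 CPM in control shRNA cells (SD, n = 3 each; log2 fold change 2.44 with SE 0.15, adjusted p of 2.36e-08 in edgeR). The interstitial collagenase gene MMP1 rose by 3.46 (SE 0.55), or 4.21 without control shRNA 3, and the metalloproteinase gene ADAM28 by 2.93 (SE 0.48). MMP14, which anchors TIMP2 and pro-MMP2 at the cell surface, was outside the naming rule and chosen after its values were seen. It had 6.06 ± 1.89 CPM in OSGEP shRNA cells and 1.45 ± 0.83 CPM in control shRNA cells. MMP14 was not called (log2 fold change 2.06 with SE 0.74, adjusted p of 0.0946 in edgeR). Over the 12 alternative fits its adjusted p ran from 0.0432 (DESeq2) to 0.242 (edgeR without control shRNA 1). Only DESeq2 went under 0.05. MMP14 had passed the filter through the OSGEP shRNA libraries alone, so its values are a description. The 2 falls, outside that rule and chosen after their values were seen, were the granule protease genes ELANE and PRTN3 given above. Of the other rises in this list, also outside that rule, the lysosomal cathepsin genes CTSB, CTSL and CTSS rose by 1.16, 1.75 and 1.52 on the log2 scale, and the membrane-bound protease genes ADAM9 and ST14 by 0.96 and 0.99. The last 2 were CTSK, at 2.52, whose call was lost without OSGEP shRNA 3 (2.19) or control shRNA 3 (2.13) and with limma-voom (2.54), and the proprotein convertase gene FURIN, at 1.10, whose call was lost without OSGEP shRNA 3 (0.95) or control shRNA 2 or 3 (1.07 and 0.90).

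Other protease inhibitors and genes of the plasmin system went both ways, 4 up and 3 down of 22 tested (31.8%, beside 10.8% of all genes tested). Their median was 0.20. CSTB, an inhibitor of cathepsins, rose by 2.01 (SE 0.11), and ANXA2, a surface receptor for plasminogen and its activator, by 2.00 (SE 0.15). SERPINB8, a serine protease inhibitor gene, fell by 1.24 (SE 0.13). Outside the naming rule, SERPINB1 and CSTA rose by 0.97 and 0.51, and CST3 and SERPINB2, which encodes an inhibitor of urokinase, fell by 0.46 and 1.10. SERPINB2 lost its call without OSGEP shRNA 3 (-1.05) or control shRNA 1, 2 or 3 (-1.04, -1.21 and -1.07) and with library size alone (-1.01). CSTA lost its call without OSGEP shRNA 2 or 3 (0.45 and 0.50) or control shRNA 1, 2 or 3 (0.47, 0.55 and 0.51), and CST3 without OSGEP shRNA 3 (-0.43) or control shRNA 2 or 3 (-0.47 and -0.43). The count of 7 was 4 without OSGEP shRNA 3 and 4 without control shRNA 3.

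Among 21 other proteoglycan and hyaluronan genes tested, 3 rose and 2 fell (23.8%, beside 10.8% of all genes tested). The median was 0.63, but 8 of the 21 had passed the filter through the OSGEP shRNA libraries alone, and over the 7 with a mean of at least 5 CPM in all libraries it was -0.18. The syndecan gene SDC2, a membrane heparan sulfate proteoglycan, stood at 22.05 ± 3.62 CPM in OSGEP shRNA cells and 2.94 ± 1.12 CPM in control shRNA cells (SD, n = 3 each), with a log2 fold change of 2.89 (SE 0.38, adjusted p in edgeR = 9.53e-05). CD74, which can carry chondroitin sulfate and is best known as the MHC class II invariant chain, fell by 2.32 (SE 0.11). CSPG4 had -1.86 (SE 0.56), a call lost without any 1 of the 6 libraries (-1.99 to -1.57), with library size alone (-1.78), with no filter beyond 1 read (-1.85) and with limma-voom (-1.80). Outside the naming rule, SDC4 and the hyaluronidase gene CEMIP2 rose by 1.76 and 3.87, the second not called by limma-voom (3.78). CEMIP2 had passed the filter through the OSGEP shRNA libraries alone.

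Genes that build glycosaminoglycan chains were called about as often as all genes, 3 up and 1 down of 31 tested (12.9%, beside 10.8%). Their median was -0.03. PAPSS2, which makes the sulfate donor, had 2.68 (SE 0.70), a call lost without OSGEP shRNA 2 (2.39) or control shRNA 1 or 2 (2.35 and 2.21) and 4.04 without control shRNA 3. The heparan sulfate sulfotransferase gene NDST1 had 0.76 (SE 0.22), a call lost without any 1 library (0.58 to 0.88). The xylose kinase gene FAM20B had -0.54 (SE 0.13), a call lost without OSGEP shRNA 3 (-0.49) or control shRNA 2 or 3 (-0.53 and -0.49). Outside the naming rule, the dermatan sulfate epimerase gene DSE had 3.42 (SE 0.72), a call lost without OSGEP shRNA 2 (2.99) and with limma-voom (3.35). Both PAPSS2 and DSE had passed the filter on low counts through the OSGEP shRNA libraries alone. The count of 4 was 1 without OSGEP shRNA 2 or control shRNA 2 and 2 without OSGEP shRNA 3 or control shRNA 1 or 3.

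Of 23 other matricellular and glycoprotein genes tested, 3 rose and 1 fell (17.4%, beside 10.8% of all genes tested), with a median of 0.06. The laminin chain gene LAMC1 stood at 51.8 ± 9.95 CPM in OSGEP shRNA cells and 8.95 ± 3.70 CPM in control shRNA cells (SD, n = 3 each; log2 fold change 2.52 with SE 0.31, adjusted p of 3.88e-05 in edgeR). LAMB3, another laminin chain gene, rose by 1.82 (SE 0.42), a call lost without OSGEP shRNA 3 (1.70) or control shRNA 2 (1.59). NID1, which encodes the laminin-binding protein nidogen-1, had -0.74 (SE 0.19), a call lost without OSGEP shRNA 2 or 3 (-0.56 and -0.73) or control shRNA 1 or 3 (-0.70 and -0.74). Outside the naming rule, EMILIN2 rose by 0.51, a call lost without control shRNA 1 (0.46). The count of 4 was 2 without OSGEP shRNA 3 or control shRNA 1. Of the 10 stromal markers 3 were tested, all of which had passed the filter through the OSGEP shRNA libraries alone. The collagen gene COL6A3 was called higher, at 13.4 CPM in OSGEP shRNA cells and 1.55 CPM in control shRNA cells. COL1A1, at 4.18 CPM in OSGEP shRNA cells and 2.79 CPM in control shRNA cells, and COL1A2, at 1.44 CPM in OSGEP shRNA cells and 2.89 CPM in control shRNA cells, were not called, and the part of these markers in the list was not tested.

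Among 22 receptors and partners of the set's proteins, 3 rose and 2 fell (22.7%, beside 10.8% of all genes tested), with a median of 0.30. CD36, a receptor of thrombospondin-1, rose by 6.93 (SE 0.28; edgeR adjusted p = 2.26e-10), or by 6.86 with limma-voom (SE 1.08; limma-voom adjusted p = 0.000277). CD36 passed the filter on low counts through the OSGEP shRNA libraries alone, so its rise is a description. LRP1, which clears complexes of proteases and their inhibitors, rose by 1.71 (SE 0.31). LRP5, a co-receptor for Wnt proteins, had 0.77 (SE 0.21), a call lost without OSGEP shRNA 2 or 3 (0.67 and 0.84) or control shRNA 1 or 2 (0.73 and 0.64). Both falls were outside the naming rule: ITGA4, an integrin chain that binds osteopontin, had -0.74 (SE 0.14), and MSN, a cytoskeletal linker of CD44, had -0.40 (SE 0.11), which lost its call without OSGEP shRNA 3 (-0.33) or control shRNA 1, 2 or 3 (-0.41, -0.44 and -0.36) and with library size alone (-0.33). The count of 5 was 3 without OSGEP shRNA 3 or control shRNA 1 or 2.

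**Figure D5:**
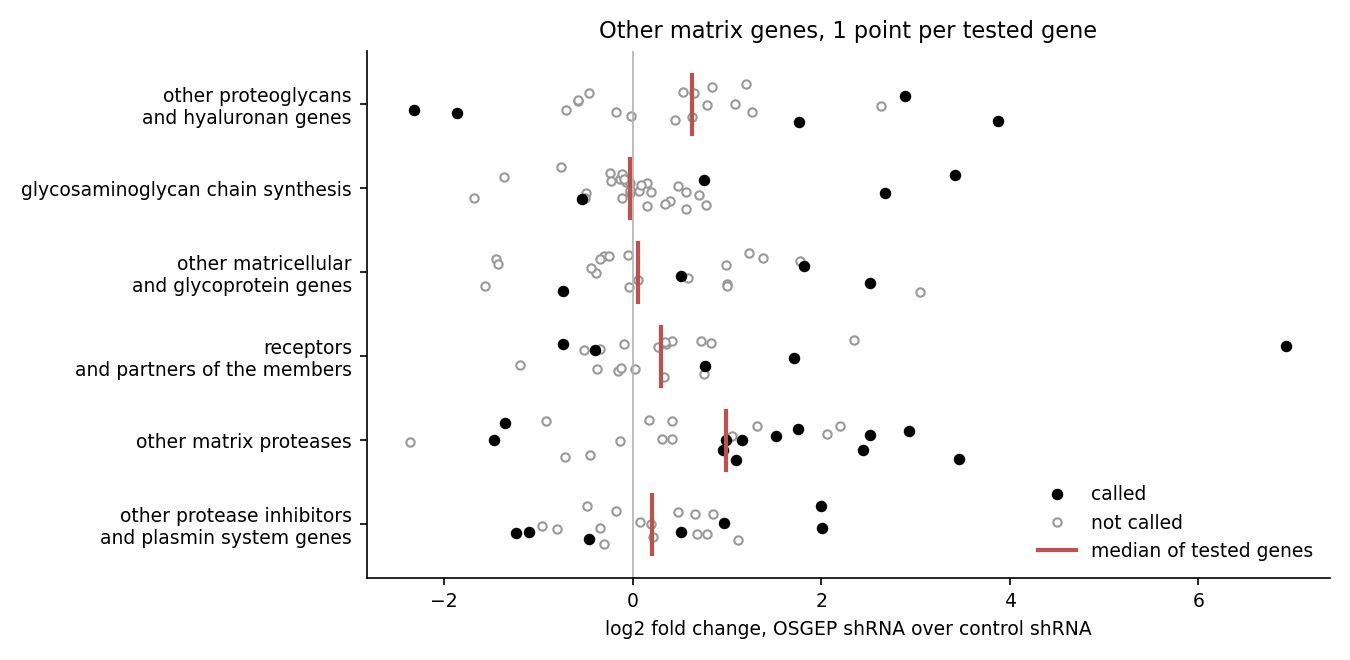
Log2 fold change, OSGEP shRNA over control shRNA (horizontal axis), of each tested gene of the 6 other matrix lists, scattered vertically within its list for legibility; filled points were called at an adjusted p under 0.05 and red bars are list medians. The protease list has the highest median, 0.99, and CD36 is the point at 6.93.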

How the data were processed

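Each library had 1 deposited table of raw counts, whole numbers of reads for Ensembl gene identifiers. HISAT2 2.1.0, featureCounts 1.6.3 and the builds GRCh38 and GRCm38 are listed, without their roles, per the submitters' processing notes. Which annotation was counted, whether strand was used and how multi-mapped reads were handled was not stated in these sources, so an overlapping or antisense gene can share reads with a member. The labels' protocols give total RNA, a stranded mRNA kit and paired-end reads of 150 bp. Names came from a table of current symbols and GENCODE release 29 on GRCh38, with 263 of 58302 identifiers in neither.

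Genes were tested with edgeR 4.0.16 (R 4.3.3): TMM scaling, filterByExpr (minimum count 10, minimum total 15), group as the only term, quasi-likelihood F test, two-sided, Benjamini-Hochberg adjustment over the 14018 genes kept. Each standard error is the log2 fold change over the root of F. Exonic length is the union of a gene's GENCODE exons. The 6 within-library ratios were tested by exact two-sided permutation (SciPy 1.17.1). The steps were tested on simulated counts. Alternatives were RLE scaling, scaling by library size alone, every gene with a read, DESeq2 1.42.0, limma-voom (limma 3.58.1), the replicate number as a block, an adjusted p of 0.01, a ratio pseudocount of 1 and each library left out in turn, and, added after seeing the data, counting only genes with a mean of at least 5 CPM over all libraries. Since no label names separate cultures, p-values reflect the spread among these libraries alone, possibly a technical one, and pairs of libraries of 1 group had a chi-square per degree of freedom of 10.5 to 25.6.

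Members, lists, ratios and motifs were chosen with earlier results of these data known. The text names the 10 members, OSGEP, and from each list up to 3 called genes, those that changed most in either direction on the log2 scale with a mean level of 5 CPM or more; any other gene named was chosen after its values were seen.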

Additional observations from a re-analysis of the deposited data

How the results depend on the processing

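VCAN, SRGN, SPP1 and TIMP2 kept their direction and their call under all 12 alternative fits, at -3.37 to -2.88, -0.81 to -0.64, 1.73 to 2.39 and 1.63 to 1.79. CD44 kept its direction in all 12 and lost its call in 6, the replicate block (0.46) and 5 of the 6 fits without a library. THBS1 kept its direction and was called in none (1.25 to 2.07), and MMP9 (2.21 to 6.05; 3.83 with the block) was called only without control shRNA 2. PLAUR changed sign with library size alone (0.04) and without OSGEP shRNA 1 (0.12), TIMP1 without OSGEP shRNA 1 (0.05) or control shRNA 1 (0.05; -0.55 to 0.05 over the fits without a library), and the log2 ratio of PLAU to PLAUR without OSGEP shRNA 1 (-0.12 to 0.41 over the same 6), none of them called. At an adjusted p under 0.01, 400 genes were higher and 423 lower, and 6 genes of the other matrix lists were lower. Leaving out 1 library gave 445 to 726 genes higher and 423 to 898 lower over all genes, and 5 to 11 lower in the other matrix lists, in fits with fewer libraries. Same-numbered libraries of the 2 groups did not deviate together (correlations of -0.12, -0.06 and -0.04 over genes), so the numbers were not taken as pairs. With the replicate number as a block, 519 genes were higher and 553 lower, and 2 members were higher and 2 lower. The block also ended the calls of CSPG4, CSTA, CST3, CTSK, LRP5, MSN and NDST1 (adjusted p 0.0539 to 0.117), and left 3 of the 5 calls among receptors and partners. Kept to a mean of at least 5 CPM, chosen after seeing the data, 670 genes were higher and 749 lower, and the members' counts stayed at 3 and 2. MMP9 rests on 136 reads in the OSGEP shRNA and 19 in the control shRNA libraries, and THBS1 on 230 in the OSGEP shRNA and 72 in the control shRNA libraries.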
